A study of Rattus norvegicus with 9 samples.

Results

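The genes described here are 7 that serve protein uptake and sorting in kidney tubule cells: Lrp2, Cubn, Dab2, Sorl1, Clcn5, Lrpap1 and Sort1. All probe sets whose single platform gene symbol was one of these names were taken, and each was kept apart. They numbered 14 of the 15866 probe sets on the array that are not controls, with 6 for Sorl1, 2 each for Lrpap1 and Sort1, and 1 for each of the other 4 genes. Each probe set combines several short probes into 1 signal, so the level of one probe set cannot be ranked against that of another. The kidneys came from 4 rats labelled case (animals 3, 5, 7 and 8) and 5 labelled control (animals 4, 9, 10, 11 and 12), each measured once. The study is titled as one of hypotension, and its labels give no strain, sex, age, treatment or time for either group. The 7 genes were chosen with the case and control values of these same arrays known, so their group differences are given as a description, without a test. For the same reason no p-value is attached to them.

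Megalin, the product of Lrp2, and cubilin, the product of Cubn, are giant receptors of the proximal tubule brush border that recover filtered proteins, vitamin carriers and hormones. Adaptor proteins such as Dab2 link megalin to clathrin-coated pits, and the endosomes they feed are acidified with the help of a chloride-proton exchanger, the product of Clcn5, whose loss in humans causes Dent disease. Sortilin (Sort1) and SORLA (Sorl1) share a luminal sorting domain and carry cargo between the Golgi, endosomes and the cell surface, and in rodent kidney SORLA is known from the thick ascending limb and distal tubule rather than from the proximal tubule alone. The name of the set therefore fits Lrp2, Cubn and Dab2 better than Sorl1, and whole-kidney RNA cannot tell fewer cells of a type from less RNA per cell.

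Among the 14 probe sets, those of Dab2 and Sorl1 mostly had lower signals in case kidneys, while Lrp2, Cubn, Lrpap1 and the brighter Sort1 probe set differed by less than their standard errors. The difference was below 0 for 12 of the 14 and above 0 for 2, where 58.3% of all 15866 probe sets, and 54% of the 9519 past the filter on low signal, lay below 0. The median of the 14 differences was -0.22 on the log2 scale, against -0.04 over all probe sets. Differences are of log2(signal + 5.03), case minus control, and those of dim probe sets understate the change. There was no overlap between case and control for 1 of the 14, a Sorl1 probe set that was lower in case, beside a background of 1% of all probe sets not overlapping in that direction. Since the genes were chosen on this contrast, nothing can be read from these counts.

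**Figure D1:**
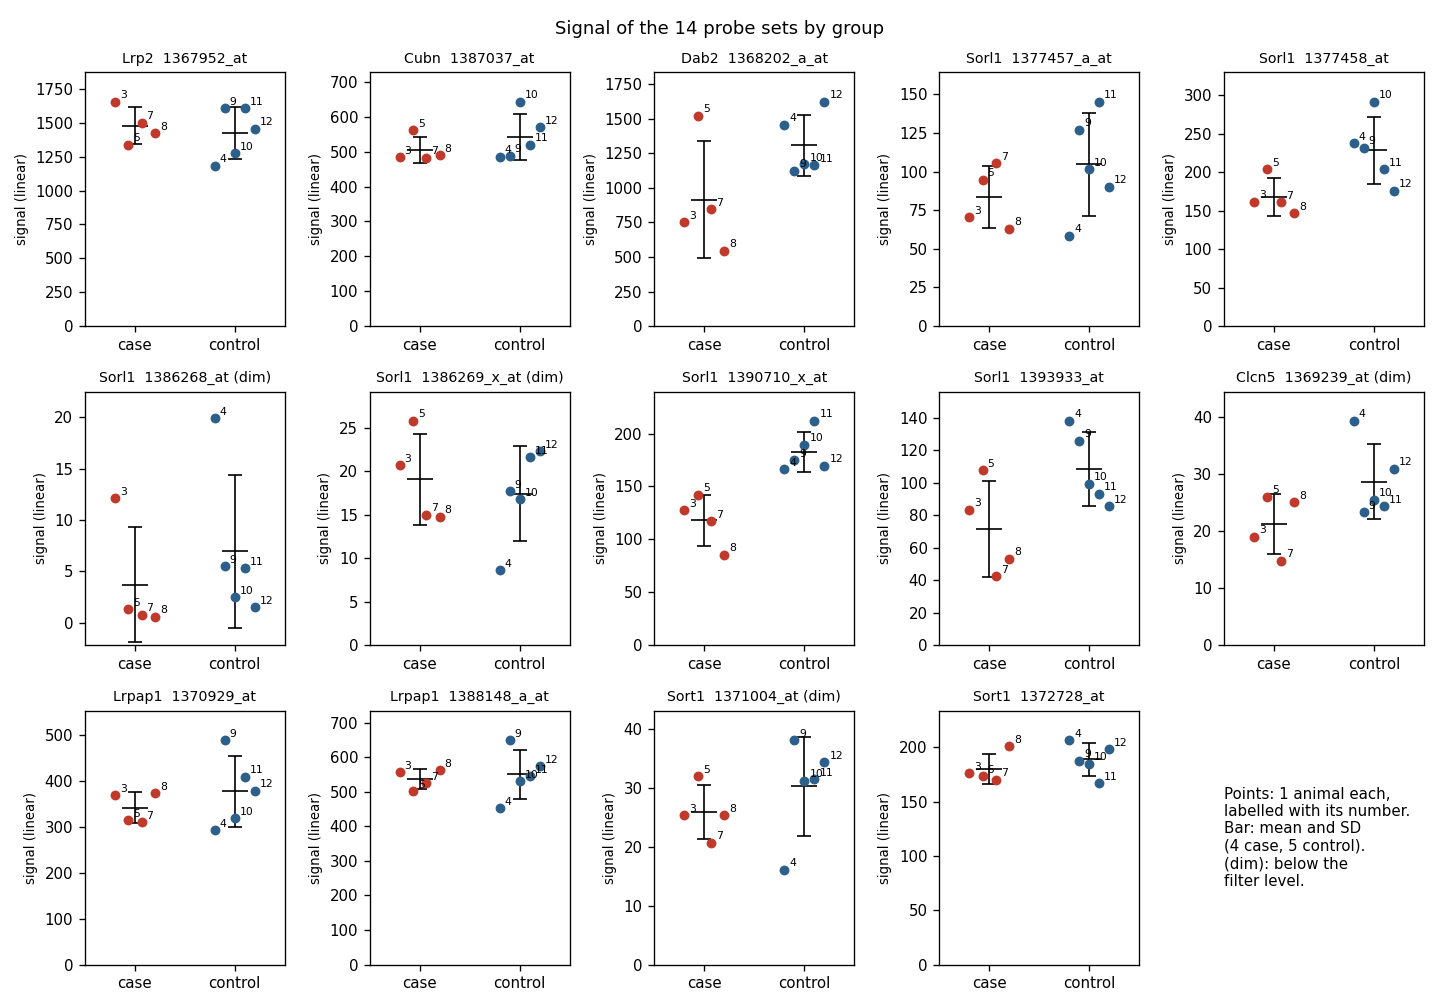
Signal on a linear scale (vertical axis) of each of the 14 probe sets, with case animals left and control animals right; points are animals with their numbers, and bars give the mean and SD. The Sorl1 probe set 1390710_x_at is the one whose groups do not overlap, with the case animals between 85.6 and 142.3 and the controls between 166.5 and 212.

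Lrp2 (1367952_at) had signals of 1656.6, 1337.8, 1500.5 and 1423.9 in case animals 3, 5, 7 and 8, against 1183.6, 1609.9, 1278.4, 1607.7 and 1455.8 in control animals 4, 9, 10, 11 and 12. The groups overlapped almost fully, and the highest value was that of case animal 3. The log2 difference was 0.06 ± 0.12 (SE), smaller than its error, and its sign turned with quantile normalization and without control animal 4.

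Cubn (1387037_at), whose product has no membrane anchor of its own and relies on amnionless and megalin, had signals of 484, 561.2, 482.7 and 490.7 in case animals 3, 5, 7 and 8, against 485.2, 488.8, 643.5, 519.9 and 570 in control animals 4, 9, 10, 11 and 12. Case animal 5 stood above the other case animals, and control animal 10 was the highest of all. The log2 difference was -0.10 ± 0.12 (SE).

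Lrpap1 encodes the receptor-associated protein, a chaperone of the endoplasmic reticulum that keeps megalin and its relatives from binding ligands too early. Its probe set 1388148_a_at had signals of 556.7, 501.2, 525 and 561.6 in case animals 3, 5, 7 and 8, against 453.1, 649.9, 530.5, 545 and 575 in control animals 4, 9, 10, 11 and 12. All case values lay inside the control range, and the log2 difference was -0.03 ± 0.12 (SE). At 1370929_at the signals averaged 340.7 ± 34.1 in case (SD, n = 4), against 377.1 ± 77.2 in control (SD, n = 5), and differed by -0.13 ± 0.15 (SE) on the log2 scale. Control animals 4 and 9 were the lowest and the highest of the 9 at both Lrpap1 probe sets.

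Dab2 (1368202_a_at), the clathrin adaptor that binds the tail of megalin, had signals of 750.5, 1522.2, 844.2 and 545.9 in case animals 3, 5, 7 and 8. The controls had 1456.4, 1125.4, 1172.4, 1165.8 and 1624.4 in animals 4, 9, 10, 11 and 12. Case animals 3, 7 and 8 lay below every control, and case animal 5 lay near the top of the control range. The means were 916 ± 423 in case (SD, n = 4), against 1309 ± 220 in control (SD, n = 5). The log2 difference was -0.60 ± 0.24 (SE), a case level of 0.66 of the control level. With 1 animal left out it lay between -0.88 without case animal 5 and -0.39 without case animal 8. Only this 1 probe set measures Dab2 on the array.

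Clcn5 (1369239_at), the exchanger of the endosome, was dim, below the filter level that corresponds to a signal near 33.3. Its signals were 19, 26, 14.8 and 25.1 in case animals 3, 5, 7 and 8, against 39.3, 23.3, 25.5, 24.3 and 30.9 in control animals 4, 9, 10, 11 and 12. Case animals 3 and 7 lay below all controls and the others inside their range. The log2 difference was -0.36 ± 0.23 (SE), taken from a fit with no filter, as for all 4 dim probe sets, and it was -0.24 without case animal 7.

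Sorl1, the sorting receptor SORLA, is measured by 6 probe sets, of which 4 passed the filter. The probe set 1377458_at, the brightest of them on average, had signals of 161.8, 203.7, 161.3 and 146.5 in case animals 3, 5, 7 and 8, against 238, 231.8, 291.8, 203.9 and 176.2 in control animals 4, 9, 10, 11 and 12. Case animals 3, 7 and 8 lay below all controls, and the log2 difference was -0.42 ± 0.15 (SE). 

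At Sorl1 1390710_x_at the signals were 127.8, 142.3, 117.3 and 85.6 in case animals 3, 5, 7 and 8, against 166.5, 174.6, 189.5, 212 and 169.5 in control animals 4, 9, 10, 11 and 12. The groups did not overlap here, and the log2 difference was -0.62 ± 0.15 (SE), a case level of 0.65 of the control level. At Sorl1 1393933_at the signals were 83.6, 107.7, 42.6 and 53.3 in case animals 3, 5, 7 and 8, against 138.2, 126, 99.4, 93.3 and 85.5 in control animals 4, 9, 10, 11 and 12. Case animal 5 lay inside the control range and the other 3 below it, with a log2 difference of -0.62 ± 0.24 (SE).

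The other Sorl1 probe sets were less uniform. At Sorl1 1377457_a_at the signals averaged 83.4 ± 20.01 in case (SD, n = 4), against 105 ± 33.5 in control (SD, n = 5), with case animals from 63 to 105.5 inside the control range of 58.6 to 145.3 and a log2 difference of -0.28 ± 0.24 (SE). That difference lay between -0.46 without control animal 4 and -0.15 without control animal 11, and was -0.16 without case animal 8. The dim probe set 1386269_x_at went the other way, by 0.12 ± 0.26 (SE), with signals from 14.8 to 25.8 in case and from 8.6 to 22.3 in control. The other dim probe set, 1386268_at, read from 0.6 to 12.1 in case and from 1.5 to 19.9 in control, and its difference of -0.46 ± 0.41 (SE) is close to its error. Thus 5 of the 6 Sorl1 probe sets were lower in case and 1 was higher, and they do not count as 6 separate observations, because they read RNA of the same 9 animals and 5 of them are annotated to only 2 expressed sequence tags. In Affymetrix naming, the ending _x_at marks probes that may also bind other transcripts, and _a_at marks probes shared by transcripts of 1 gene.

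Sort1, the receptor sortilin, had signals of 175.9, 173.1, 170 and 200.8 at probe set 1372728_at in case animals 3, 5, 7 and 8, against 206.6, 187.6, 184.9, 166.9 and 198 in control animals 4, 9, 10, 11 and 12. The groups overlapped, and the log2 difference was -0.07 ± 0.11 (SE). Its dim probe set 1371004_at averaged 25.9 ± 4.65 in case (SD, n = 4), against 30.2 ± 8.37 in control (SD, n = 5), with a log2 difference of -0.16 ± 0.24 (SE).

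The arrays were washed in 3 fluidics runs, told apart by their start times. Run 1 held case animals 3, 5 and 7 with control animal 4, run 2 held case animal 8 with control animals 9, 10 and 11, and run 3 held control animal 12. The difference was below 0 within both run 1 and run 2 for 5 of the 14 probe sets, namely Dab2 and 4 of Sorl1. The dim Sorl1 1386268_at, with signals near the floor, is 1 of these. For the other 9 the difference took opposite signs in the 2 runs. The share over all probe sets was not computed, so nothing can be read from this count. For Dab2 the difference was -0.56 within run 1, -1.07 within run 2 and -0.82 with the run as a block. The block value is the mean of the 2 within-run values, and control animal 12, alone in run 3, adds nothing to it. For Sorl1 1390710_x_at the difference was -0.36, -1.12 and -0.74 in the same order. Since its groups do not overlap over all animals, the sign was bound to be the same in each run. For Sorl1 1377457_a_at it was 0.56 within run 1 and -0.92 within run 2. Lrp2 differed by 0.33 within run 1 and by -0.07 within run 2, and Lrpap1 1388148_a_at by 0.22 and -0.03. Each run holds only 1 animal of 1 group, so these values have no error of their own.

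**Figure D2:**
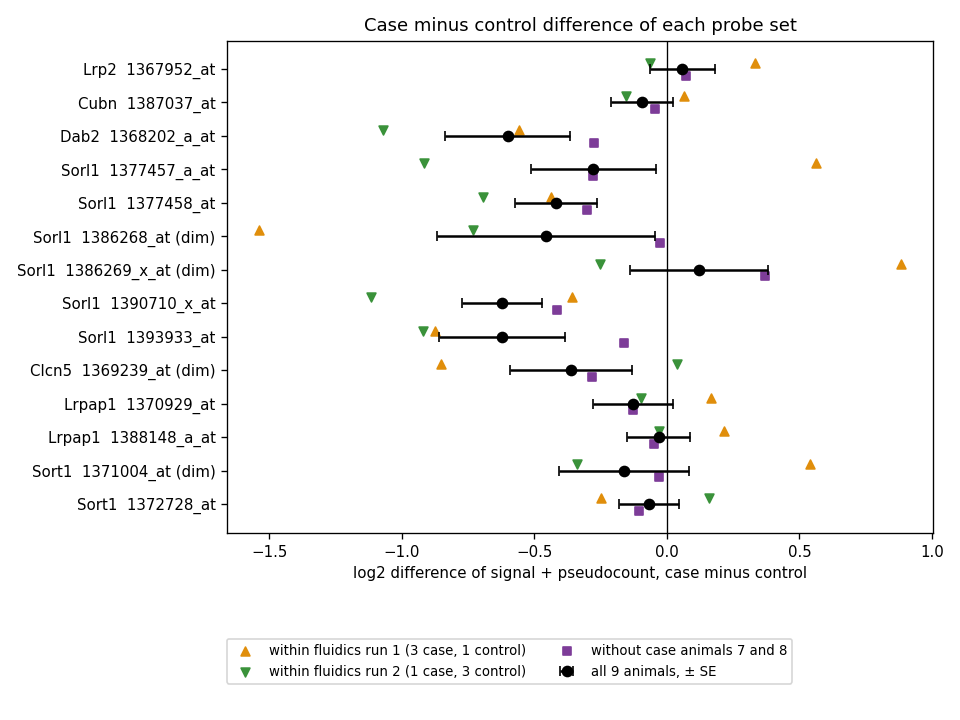
Log2 difference of signal plus pseudocount, case minus control (horizontal axis), for each probe set over all 9 animals with its SE (circles), within fluidics runs 1 and 2 (triangles) and without case animals 7 and 8 (squares). Dab2 and Sorl1 1390710_x_at lie left of 0 in all of these, and Sorl1 1377457_a_at takes opposite signs in the 2 runs.

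Measures of RNA shortening were higher in some case animals than in any control. The ratio of 3' to 5' beta-actin control signal was 1.57, 1.52, 3.05 and 3.11 in case animals 3, 5, 7 and 8, against 1.65, 2.0, 1.12, 1.73 and 1.94 in control animals 4, 9, 10, 11 and 12. Case animals 7 and 8 thus stood above all other animals. The ratio for Gapdh was 2.09, 1.55, 2.39 and 1.93 in the same case animals, against 1.56, 1.63, 1.75, 1.57 and 1.79 in the same controls, so that case animals 3, 7 and 8 stood above them. No fit used the Gapdh ratio. With the log2 beta-actin ratio as a covariate the differences were -0.44 for Dab2, -0.49 for Sorl1 1390710_x_at, -0.27 for Sorl1 1377458_at and -0.38 for Sorl1 1393933_at. Without case animals 7 and 8, a setting chosen after seeing the data, they were -0.28, -0.42, -0.30 and -0.16 in the same order. The part of RNA shortening in these differences was not tested beyond these values.

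**Figure D3:**
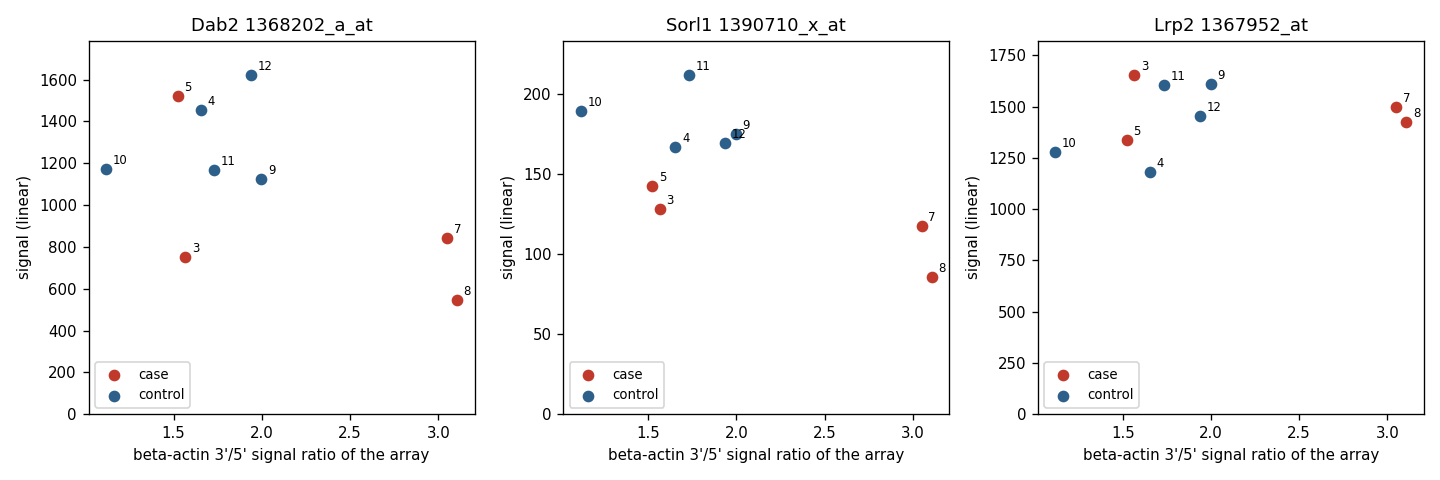
Signal on a linear scale (vertical axis) against the beta-actin 3'/5' signal ratio of the array (horizontal axis) for Dab2, Sorl1 1390710_x_at and Lrp2, with case animals in red and control animals in blue. Case animals 7 and 8 lie at ratios of 3.05 and 3.11, and case animal 3, at 1.57, is also below the controls for Dab2 and Sorl1. The Gapdh ratio of case animal 3, not drawn, was 2.09, above the controls at 1.56 to 1.79.

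Markers of the tubule segments that express these genes were present. All 20 proximal tubule markers listed, among them Slc34a1 and Slc5a2, lay above the filter. Their summed signal ran from 26770 to 37177 in case and from 27395 to 33946 in control, 9 of the 20 lay below 0 and 11 above, and the median difference was 0.07. Gatm and Hnf4a were lower at an unadjusted limma p under 0.05, beside 3.81% of all tested probe sets in that direction. Hnf4a averaged 124 ± 88.7 in case (SD, n = 4), against 192 ± 27.5 in control (SD, n = 5). For the 8 markers of thick limb and distal tubule, such as Umod and Slc12a1, the sum ran from 8352 to 10908 in case and from 8497 to 10570 in control, with 5 below 0, 3 above and a median of -0.11. The sums of both lists overlapped between the groups, as did those of the collecting duct, podocyte, endothelium, smooth muscle, leukocyte, blood, adrenal cortex and liver lists. Single markers of vessels were lower at an unadjusted limma p under 0.05, which 3.81% of all tested probe sets met in that direction. They were 2 of the 4 endothelial ones, Egfl7 (log2 difference -0.45) and Esam (-0.48), and 1 of the 5 smooth muscle ones, Myh11 (-0.43). The other 2 endothelial markers were higher, Kdr by 0.19 and Pecam1 by 0.13. Of the smooth muscle ones, 4 lay below 0 and the dim Cnn1 was higher by 0.55. The part of these markers in the differences of Dab2 and Sorl1 was not tested. For leukocytes the sum ran from 68.8 to 117.8 in case and from 105.4 to 138.9 in control, with all 5 markers lower and 1 of them above the filter. No listed marker read 0 on all arrays.

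How the genes varied among animals of the same group was free of the contrast they were chosen on. Deviations from the group means were correlated over the 9 animals, by Pearson's r and Spearman's rho with exact permutation within groups (2880 arrangements, 2-sided), for 21 gene pairs by their brightest probe sets and for the 6 pairs of Sorl1 probe sets above the filter. No pair passed after Benjamini-Hochberg adjustment over the 27 pairs, where the smallest adjusted exact p was 0.516 and 1 pair had an unadjusted exact p under 0.05 for r.

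That pair was Lrp2 and Lrpap1, a receptor and its chaperone, with r = 0.78 (exact permutation p = 0.0243, adjusted 0.516) and rho = 0.78 (exact permutation p = 0.0476, adjusted 0.497). Without control animals 4 and 10, the 2 farthest from the median of Lrp2, r was 0.41 (exact permutation p = 0.333). Leaving them out narrows the spread of Lrp2 and keeps only 7 animals, so the lower r cannot tell whether the relation rests on them. With quantile normalization r was 0.64 (exact permutation p = 0.136, adjusted 0.597). With the fluidics run also removed over all 9 animals, r was 0.78. A run holds at most 4 animals, too few for a value of its own. Pairs added after these values were seen are given as a description only. The other Lrpap1 probe set gave r = 0.85 and rho = 0.87 with Lrp2, and r = 0.52 without the same 2 controls. Since the 2 Lrpap1 probe sets read the same RNA and had r = 0.91 with each other (0.74 without control animals 4 and 9), this is no separate support for the pair. The 2 Sort1 probe sets, one of them dim, gave r = -0.35 and rho = -0.16.

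**Figure D4:**
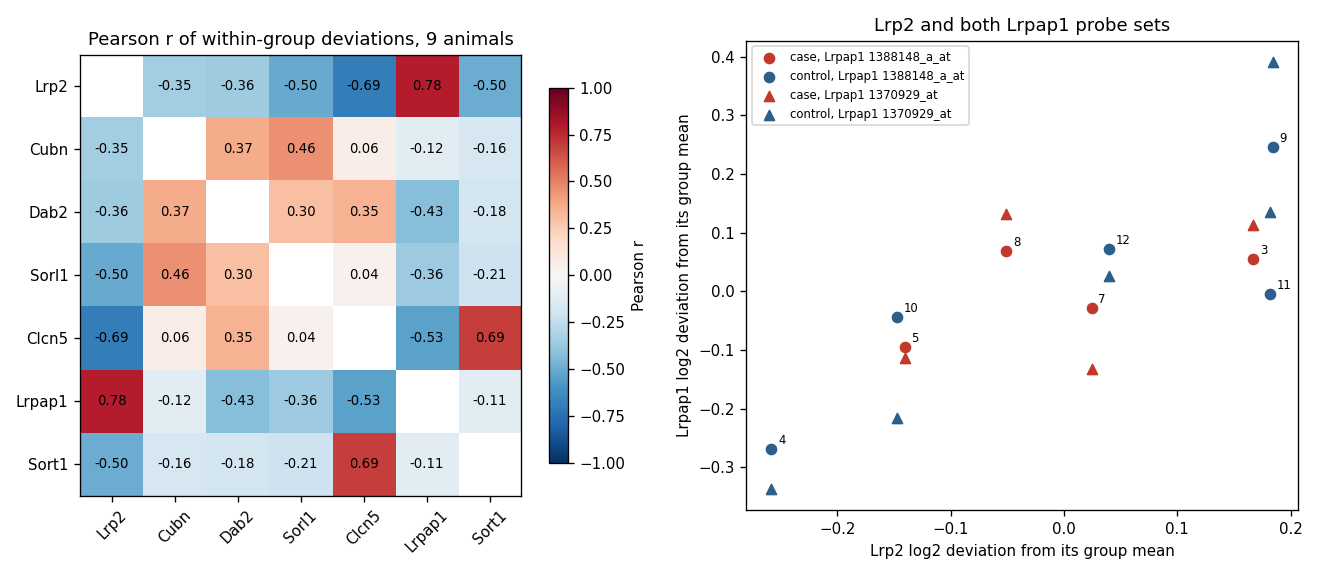
Left, Pearson r of deviations from the group means between the 7 genes by their brightest probe sets over 9 animals; right, deviations of both Lrpap1 probe sets (vertical axis, log2) against those of Lrp2 (horizontal axis, log2), with case in red, control in blue and animal numbers. Lrp2 and Lrpap1 have r = 0.78, and control animal 4 is lowest in both.

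For Lrp2 and its partner Cubn, r was -0.35 (exact permutation p = 0.458, adjusted 0.760) and rho was -0.25 (exact permutation p = 0.569, adjusted 0.836), with r = -0.79 without control animals 4 and 10 (exact permutation p = 0.0764). For Lrp2 and the adaptor Dab2, r was -0.36 (exact permutation p = 0.282, adjusted 0.603) and rho was -0.47 (exact permutation p = 0.174, adjusted 0.586), with r = -0.56 without the same 2 animals (exact permutation p = 0.313). Neither relation could be told from 0 with 9 animals. For Dab2 and Sorl1 1377458_at, r was 0.30 (exact permutation p = 0.414, adjusted 0.760) and rho was 0.23 (exact permutation p = 0.555, adjusted 0.836), and r was -0.54 without case animals 5 and 8 (exact permutation p = 0.379). For Cubn and Sorl1 1377458_at, r was 0.46 (exact permutation p = 0.290, adjusted 0.603) and rho was 0.083 (exact permutation p = 0.849, adjusted 0.917). The sign of this r depended on 2 animals, since it was -0.97 without case animal 5 and control animal 10 (exact permutation p = 0.0139, unadjusted), and it was 0.90 with the fluidics run removed. Among the 6 pairs of Sorl1 probe sets r ran from -0.21 to 0.57. The pair 1377458_at and 1393933_at had r = 0.54 (exact permutation p = 0.119, adjusted 0.5375) and rho = 0.70 (exact permutation p = 0.0295, adjusted 0.497), with r = 0.64 without case animal 5 and control animal 10 (exact permutation p = 0.118).

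By the same measure, the probe sets of other genes most like Lrp2, among 8075 that had a single symbol and lay above the filter, were those of Slc12a1 (r = 0.98), Slc33a1 (0.97), Ghr (0.96), Anapc4 (0.95) and Amacr (0.94). Slc12a1 encodes the salt carrier of the thick limb, Ghr the growth hormone receptor and Amacr a racemase of branched fatty acids. Those most like Sorl1 1377458_at, among 8072 chosen likewise, were Bst2 (r = 0.99), Stc1 (0.94), Ndst1 (0.94), Llgl1 (0.93) and Shank3 (0.93). These are the highest of all those r values over 9 animals that share arrays and scaling, and are given as a description.

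The other genes of the pathway were listed by role, 155 in all, of which 127 were on the array and 112 had at least 1 of 145 probe sets above the filter. Tested with limma over all 9519 probe sets, 0 of the 145 had an adjusted p under 0.05, the smallest being 0.644, and 0 of all tested probe sets passed (0%). At an unadjusted limma p under 0.05, met by 6.69% of all tested probe sets, there were 10 lower in case, beside 3.81% of all tested probe sets, and 1 higher, beside 2.88%. Their median difference was 0.02, with 68 below 0 and 77 above, against a median of -0.02 over all tested.

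Among coreceptors, adaptors and coat proteins, 0 of 19 tested probe sets passed, 1 was lower and 0 higher at an unadjusted limma p under 0.05, and the smallest p was that of Amn, which encodes amnionless, the membrane anchor of cubilin. At Amn 1375106_at the signals were 148.2, 169.2, 99.9 and 135.9 in case animals 3, 5, 7 and 8, against 327.8, 186.4, 307, 178.5 and 178.7 in control animals 4, 9, 10, 11 and 12. The groups did not overlap, beside 0.903% of tested probe sets not overlapping in that direction, and the log2 difference was -0.72 ± 0.22 (SE, limma adjusted p = 0.644). The other Amn probe set, 1391409_at, averaged 580 ± 27.8 in case (SD, n = 4), against 544 ± 44.2 in control (SD, n = 5), and differed by 0.10 ± 0.10 (SE, limma adjusted p = 0.918), so the 2 probe sets of Amn disagree. Cltc, the clathrin heavy chain, averaged 964 ± 109 in case (SD, n = 4), against 945 ± 155 in control (SD, n = 5). Clta, a clathrin light chain, averaged 944 ± 147 in case and 889 ± 26.7 in control. Cltb, the other clathrin light chain, differed by -0.43 ± 0.27 at 1375324_at (limma adjusted p = 0.821), or by -0.15 without case animal 7, and by 0.06 ± 0.16 at 1367907_a_at (limma adjusted p = 0.978). Epn1, an endocytic adaptor of the coat, differed by -0.44 ± 0.31 (limma adjusted p = 0.853). With 1 animal left out this lay between -0.72 without case animal 5 and -0.16 without case animal 7. With the log2 beta-actin ratio as a covariate it was -0.04, and without case animals 7 and 8 it was 0.11.

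Of the 30 probe sets for endosomal Rab proteins and lipid kinases, 0 passed, 4 were lower and 0 higher at an unadjusted limma p under 0.05. Rab11b, a GTPase of recycling endosomes, averaged 359 ± 28.5 in case (SD, n = 4), against 511 ± 96.6 in control (SD, n = 5), and differed by -0.49 ± 0.15 on the log2 scale (SE, limma adjusted p = 0.644), with its other probe set at -0.30 ± 0.19. Rab14, a GTPase of Golgi and endosome traffic, had 85.3, 203.8, 88.5 and 84.8 in case animals 3, 5, 7 and 8, against 145.6, 188.8, 187.5, 168.3 and 191.5 in control animals 4, 9, 10, 11 and 12. Case animals 3, 7 and 8 lay below all controls and case animal 5 above them. The log2 difference at this Rab14 probe set was -0.69 ± 0.23 (SE, limma adjusted p = 0.644). Without case animal 5, which had the lowest Gapdh 3'/5' ratio of the case animals, it was -0.98. The limma adjusted p was 0.0134 there, the lowest over all alternatives, whose highest was 0.9998. Rab14 differed here by -0.52 with the log2 beta-actin ratio as a covariate, and by -0.39 without case animals 7 and 8. Its 2 other tested probe sets differed by -0.30 ± 0.14 and by 0.42 ± 0.32, and a dim one by -0.72 ± 0.35. Rab7a, a GTPase of late endosomes, averaged 660.5 ± 51.8 in case and 639 ± 63.6 in control at 1387797_at. Ehd4, a membrane-remodelling protein of endosomes, differed by -0.70 ± 0.31 at 1374399_at (limma adjusted p = 0.720), or by -0.35 without case animal 3, and by -0.42 ± 0.23 and -0.43 ± 0.21 at its other probe sets (limma adjusted p = 0.799 and 0.778).

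Acidification genes lay on both sides, 8 below 0 and 12 above, with 0 of 20 probe sets past the threshold and 1 lower and 1 higher at an unadjusted limma p under 0.05. Atp6v0a1, a membrane subunit of the proton pump, averaged 87.7 ± 12.7 in case (SD, n = 4), against 62.7 ± 11.1 in control (SD, n = 5), and differed by 0.46 ± 0.16 on the log2 scale (SE, limma adjusted p = 0.644). Its groups did not overlap, beside 0.977% of tested probe sets not overlapping with case higher. Atp6v1a, a catalytic subunit, differed by -0.28 ± 0.13 at 1382048_at (limma adjusted p = 0.729), or by -0.18 without case animal 8, and by 0.04 ± 0.13 at 1374431_at (limma adjusted p = 0.985). Atp6v0e1 differed by 0.33 ± 0.17 (limma adjusted p = 0.784), or by 0.18 without control animal 12. Atp6v0c, the proteolipid of the pump's membrane ring, averaged 1533 ± 101 in case and 1618 ± 245 in control.

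Among sorting receptors, retromer and coat genes, 0 of 26 probe sets passed and 0 had an unadjusted limma p under 0.05, with differences from -0.20 to 0.29. Vps29, a retromer subunit, had 563.2, 618.5, 679 and 580.2 in case animals 3, 5, 7 and 8, against 477.8, 522.9, 518.7, 552.8 and 556.4 in control animals 4, 9, 10, 11 and 12. The values did not overlap, beside 0.977% of tested probe sets not overlapping with case higher, and the log2 difference was 0.21 ± 0.11 (SE, limma adjusted p = 0.778). Snx3, a retromer-binding protein, differed by 0.29 ± 0.14, or by 0.17 without case animal 8, and Ap3b1 by -0.17 ± 0.11 (limma adjusted p = 0.775 and 0.821). Snx3 was at 0.13 with the log2 beta-actin ratio as a covariate and at 0.10 without case animals 7 and 8. Igf2r, the receptor that sorts lysosomal enzymes, averaged 954 ± 292 in case and 1062 ± 318 in control at 1386872_at.

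The LDL receptor family, to which megalin belongs, had 8 probe sets tested, 0 past the threshold and 1 lower at an unadjusted limma p under 0.05. Lrp6, a coreceptor of Wnt signalling, had 11.9, 113.6, 45.2 and 47.4 in case animals 3, 5, 7 and 8, against 87.1, 84.4, 114.7, 94.8 and 110 in control animals 4, 9, 10, 11 and 12. Case animals 3, 7 and 8 lay below all controls and case animal 5 among them, and the log2 difference was -1.10 ± 0.40 (SE, limma adjusted p = 0.644). It lay between -1.53 without case animal 5 and -0.60 without case animal 3. Lrp4 differed by 0.26 ± 0.16 (limma adjusted p = 0.804). Vldlr, the very low density lipoprotein receptor, differed by 0.37 ± 0.23 at 1389611_at (limma adjusted p = 0.811), or by 0.18 without control animal 4, by -0.05 ± 0.18 at 1369098_at (limma adjusted p = 0.987), and by 0.20 ± 0.36 at a dim probe set. Lrp10 averaged 596 ± 67.3 in case and 613 ± 17.8 in control.

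Of 25 probe sets for ligands and cargo, 0 passed, 3 were lower and 0 higher at an unadjusted limma p under 0.05. Plau, the urokinase that megalin can take up with its inhibitor, averaged 394 ± 149 in case (SD, n = 4), against 619 ± 135 in control (SD, n = 5), and differed by -0.70 ± 0.24 on the log2 scale (SE, limma adjusted p = 0.644), and its other probe set differed by -0.32 ± 0.17. The growth factor Igf1 differed by -1.67 ± 0.59 and -0.64 ± 0.24 at its 2 tested probe sets (limma adjusted p = 0.644 for both), although control animal 4 read 12.2 and 35.4 there, inside the case range. Selenop, a selenium carrier that megalin takes up, averaged 2716 ± 412 in case and 2728 ± 558 in control, and B2m, a filtered small protein, averaged 2073 ± 287 in case and 2145 ± 267 in control. Lysosomal genes had 17 tested probe sets, all between -0.18 and 0.21 and 0 past the threshold or with an unadjusted limma p under 0.05. The hydrolase gene Hexa, the membrane protein gene Lamp1 and Psap, the saposin precursor, differed by 0.21 ± 0.12, 0.11 ± 0.11 and -0.18 ± 0.17 (limma adjusted p = 0.799, 0.900 and 0.902). Lamp1 was at 0.06 without control animal 11, its 2 other probe sets being dim. With 1 animal left out, Psap lay between -0.33 without case animal 5 and -0.12 without case animal 7. Psap was at -0.30 without control animal 9, at -0.04 with the log2 beta-actin ratio as a covariate and at -0.01 without case animals 7 and 8. The cathepsin gene Ctsl averaged 1853 ± 282 in case and 1878 ± 282 in control, and Cd63 averaged 1938 ± 94.1 in case and 1998 ± 115 in control.

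**Figure D5:**
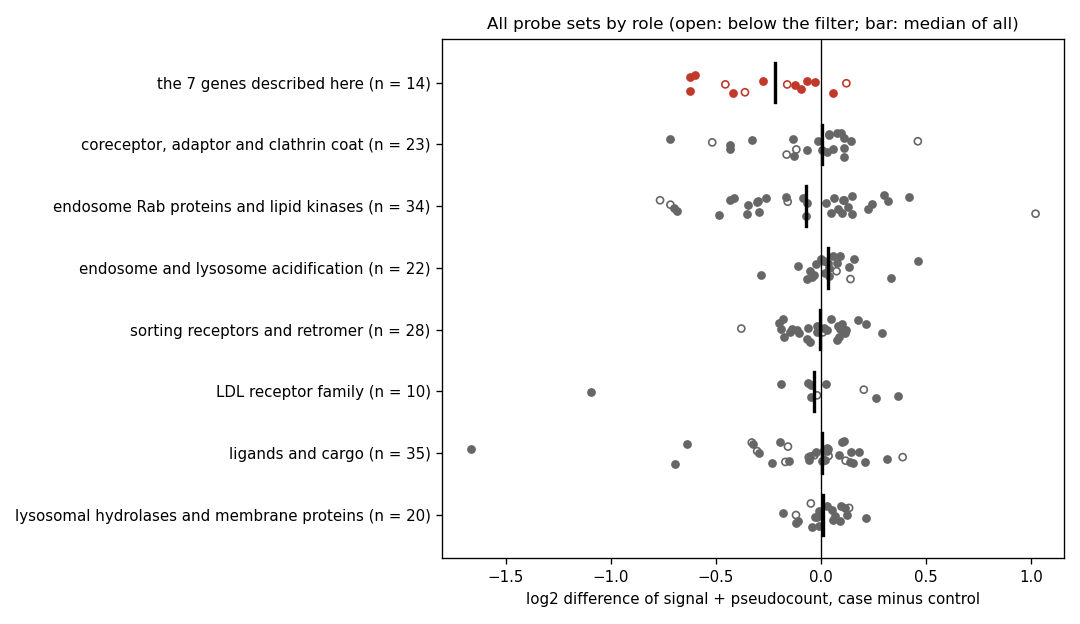
Log2 difference of signal plus pseudocount, case minus control (horizontal axis), of every probe set of the 7 genes (red) and of the other pathway genes by role (grey), with open points for probe sets below the filter and bars at the median. Over all probe sets drawn, the median is -0.22 for the 7 genes and lies between -0.07 and 0.03 in each role group.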

How the data were processed

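Total RNA of 9 rat kidneys was measured on Affymetrix RAE230A arrays, per the file headers. The deposited value table holds linear signal intensity per probe set, which the authors had already scaled between arrays (trimming 2% from both ends gave means of 100.02 to 100.03). How probes were summarised and background was removed is not stated by the labels or headers. Median signals ran from 45.2 to 55.6, and no 2 arrays were identical. The number of arrays limits the precision, and p-values measure only the spread between these animals.

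The 57 control probe sets were left out. Symbols came from the platform annotation, where 12783 of 15866 probe sets had 1 symbol, 312 several and 2771 none. A RefSeq gene table of GRCr8 matched 12748 by Entrez ID, and it named no further probe set for the 7 genes. Coordinates are not printed, because the array annotation names no build.

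Values were used as log2(signal + 5.03), the pseudocount being 10% of the table median of 50.3. Probe sets whose mean log2 value lay above the 40th percentile were tested, which left 9519 and included 10 of the 14 described here. The case and control arrays were fitted by limma 3.58.1 under R 4.3.3 (lmFit, eBayes with an intensity trend, 2-sided, Benjamini-Hochberg adjustment over all 9519, threshold 0.05). Estimates for dim probe sets came from the same fit with no filter. Within-group deviations were compared by exact permutation in Python 3.11.15 with NumPy 2.4.6 and SciPy 1.17.1. The steps were tested on simulated data.

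The genes and all lists were chosen with earlier results of these data known. Named genes were every probe set of the 7 genes, the 3 with the smallest p in each role group, 1 to 3 of the highest signal in it as levels, the 5 most alike in pattern to Lrp2 and Sorl1, and markers. Other probe sets of these genes, and Egfl7, Esam, Myh11, Kdr, Pecam1 and Cnn1, were added after their values were seen. Alternatives covered the pseudocount, filter, scaling, trend, array weights, fluidics run, actin ratio and each animal left out.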

Additional observations from a re-analysis of the deposited data

Results flagged for a closer look

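In 8 of 70 groups checked, 1 animal stood apart from the rest of its group by Dixon's criterion. Chance meets it in about 1 in 20 groups if these are independent and normal. The groups here share the same 9 arrays and linear signals were used, so the count cannot be set against that rate. Among the 7 genes, case animal 5 had a Cubn signal of 561.2 where the next case animal had 490.7. At the dim Sorl1 probe set 1386268_at, case animal 3 read 12.1 against 1.3 for the next case animal, and control animal 4 read 19.9 against 5.5 for the next control.

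In the pathway list, case animal 5 stood above the other case animals at Rab14 1367884_at, with 203.8 against 88.5, and at Psap, with 1116.2 against 757.9. Case animal 8 had an Atp6v0a1 signal of 106.5, against 83.7 for the next case animal. Case animal 3 had an Ehd4 signal of 9, against 31.4 for the next case animal. Control animal 4 had an Igf1 signal of 12.2 at 1370333_a_at, against 83.3 for the next control.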

How the results depend on the processing

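The number of probe sets called over the whole table was 0 with all animals. It was 1 with a pseudocount of 50% of the median, with no filter and with median centring, and leaving out 1 animal gave from 0 to 53. The 53 came without case animal 5, and 39 of them were lower and 14 higher. They included 1 probe set of the pathway list, that of Rab14, and 1 of the 14. The latter is no test, since the 14 were chosen on this contrast. Without case animal 5, whose Gapdh 3'/5' ratio was 1.55, the case group held only animals 3, 7 and 8. Their Gapdh ratios of 2.09, 2.39 and 1.93 stood above the highest control at 1.79. For beta-actin, only animals 7 and 8 stood above the controls. The part of RNA shortening in the 53 calls was not tested. The median difference of the 14 was -0.11 with the fluidics run as a block and -0.12 without case animals 7 and 8, against -0.22. The pathway median was 0.11 with median centring, against 0.02, and this scaling moved the share of probe sets higher in case, among those with an unadjusted p under 0.05, to 74.4%, against 43% as deposited. Over the 20 alternatives, Cubn, Dab2, Clcn5 and all Sorl1 probe sets but 1386269_x_at kept a difference below 0, with Dab2 between -0.88 and -0.28 and Sorl1 1390710_x_at between -0.74 and -0.42. The filter and trend settings leave each difference unchanged. Leaving out animals cannot turn the sign of Sorl1 1390710_x_at, whose groups do not overlap. As the genes were chosen on this contrast, kept signs are a description and no support. The sign turned in 2 alternatives for Lrp2, in 4 for Lrpap1 1388148_a_at, and in 1 each for Lrpap1 1370929_at and both Sort1 probe sets. It also turned in 2 for Sorl1 1386269_x_at. Epn1 turned to 0.11 without case animals 7 and 8, a setting chosen after seeing the data, and Sorl1 1393933_at lay at -0.16 there. No paired analysis was possible because the animal numbers are not shared between the groups. Of the 27 planned pairs of probe sets, 0 passed in each setting of the correlations, with the smallest adjusted exact p between 0.375 and 0.750. With the run removed only 36 arrangements remain, which limits the p they can give. Detection calls are not used here, so values of the 4 dim probe sets may lie near background.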
